A study of Mus musculus with 9 samples.

Results

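Embryoid bodies were compared with differentiation by LIF withdrawal in unmodified E14 cells, a mouse embryonic stem (ES) cell line of strain 129. The comparison rests on 2 of the 9 libraries of the series, the WT embryoid body library and the WT library taken after 96 h (day 4) without LIF, and was chosen by its labels alone. Both hold total RNA of wild type cells, and the label gives no day for the embryoid bodies, so the time of the routes cannot be matched. The same conditions were sequenced with 2 libraries each from E14 cells labelled Hbxip-/- (KO), and pluripotent culture with 1 WT and 2 KO libraries. These KO pairs supplied the spread for every test, because each WT condition has 1 library, and no label says whether 2 libraries of a pair came from separate cultures or clones.

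LIF is a cytokine that holds mouse ES cells in self-renewal through STAT3, and its removal lets the cells leave the naive state through a formative, FGF-driven epiblast state. Embryoid bodies are aggregates grown in suspension, in which cells meet neighbours and matrix on all sides, and an outer endoderm layer and cells like those of the primitive streak commonly form. FGF and ERK signalling is read out by its own feedback inhibitors (the Sprouty and DUSP families), NODAL and BMP signalling by their direct targets (Lefty and Id genes).

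The 2 WT libraries held 10335754 (embryoid bodies) and 10620795 (LIF withdrawal) rounded counts, and all 9 held 10147277 to 10863845, so that 3 counts were worth 0.276 to 0.296 CPM, a count scaled to the library total. A level below is an FPKM, the authors' value per gene length and library size, and a difference is a log2 fold change of embryoid bodies over LIF withdrawal from a fit to the counts, given as value ± SE. On the first and second principal components the 2 WT differentiated libraries lay at -64.6 and -35.3 (embryoid bodies) and at -60.3 and -25.7 (LIF withdrawal). Lamtor5, the gene called Hbxip in the labels, was at 38.5 FPKM after WT LIF withdrawal and 41.8 in WT embryoid bodies, against 15.5 to 31.0 in the 6 KO libraries.

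Of 13990 genes tested, 1339 (9.57%) were higher and 1674 (12%) lower in WT embryoid bodies at an adjusted p below 0.05, with a median log2 fold change over all genes of 0.01. With at least a 2-fold change as well, 320 genes were higher (2.29%) and 387 lower (2.77%). In the KO cells, 2 libraries against 2, 16.7% of genes were higher and 17.6% lower, and with at least 2-fold 569 were higher (4.07%) and 222 lower (1.59%). The WT counts depend on how much a WT library is taken to vary. DESeq2 called 463 genes higher and 807 lower, and an assumed coefficient of variation of 0.2 or 0.4 between WT libraries, in place of the 6.52% of the KO pairs, gave 92 higher and 124 lower, or 7 and 7. Each difference below is a difference between 2 libraries, and each lone WT library was given the spread of the KO pairs. In bulk RNA, fewer cells of a type and less RNA per cell cannot be told apart.

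**Figure D1:**
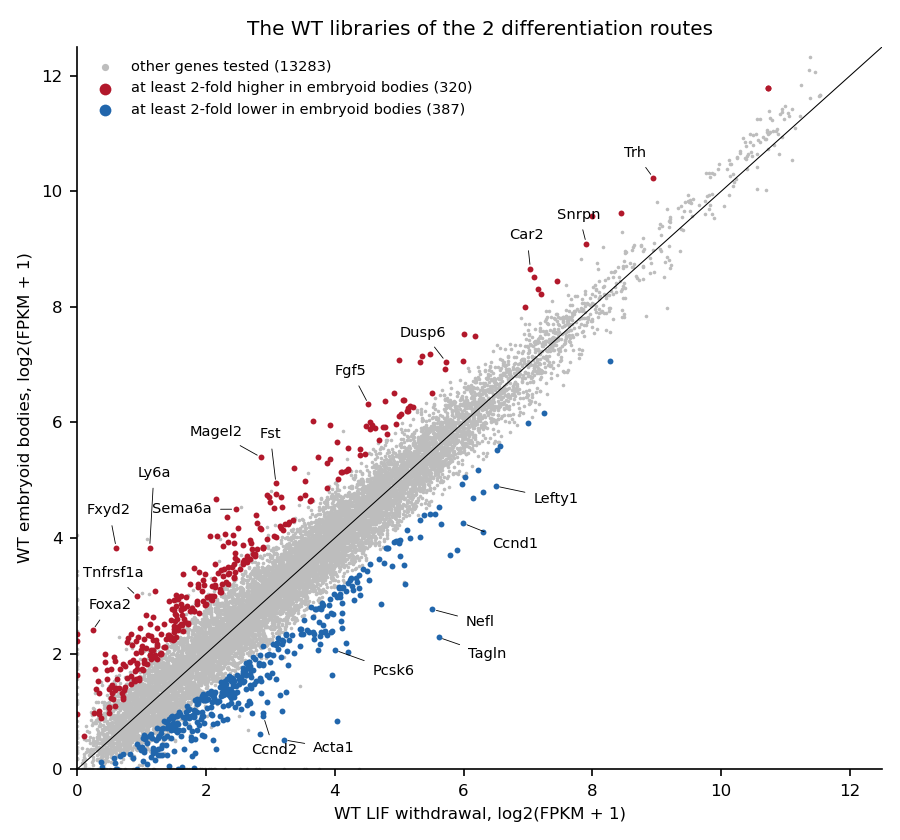
Levels of the 13990 genes tested in the WT library after LIF withdrawal (x axis) and in the WT embryoid body library (y axis), both as log2(FPKM + 1); each point is a gene, and the diagonal marks equal levels. The 320 genes called at least 2-fold higher in embryoid bodies (red) and the 387 called lower (blue) lie off the diagonal, with Fxyd2 (0.52 and 13.2 FPKM) above it and Tagln (47.9 and 3.86 FPKM) below.

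Among genes called at 2-fold with at least 5 FPKM in the higher WT library, the largest rise was in Fxyd2, the gamma subunit that modulates the sodium pump, with 78 counts (13.2 FPKM) against 3 (0.52 FPKM), a count ratio of 26.7 (95% exact binomial interval 8.81 to 132) by counting error alone. Ly6a, which encodes the surface antigen Sca-1, was at 1.18 FPKM after LIF withdrawal and 13.2 in embryoid bodies (log2 fold change 3.44 ± 0.40, adjusted p = 0.000192). Tnfrsf1a, the type 1 receptor of tumour necrosis factor, was at 0.90 and 6.97 FPKM (log2 fold change 2.93 ± 0.32, adjusted p = 0.000143). All 3 were also higher in the KO embryoid bodies, where Fxyd2 stood at 13.9 and 15.6 FPKM against 0.17 and 0.31.

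A lysosomal protease, a guidance molecule and a redox regulator were also among the 12 largest rises. Ctsc, the lysosomal protease cathepsin C, was at 4.0 FPKM after LIF withdrawal and 19.5 in embryoid bodies (log2 fold change 2.26 ± 0.19, adjusted p = 3.79e-05). Sema6a, a membrane-bound semaphorin, was at 4.51 and 21.6 FPKM (log2 fold change 2.25 ± 0.16, adjusted p = 7.61e-06), and at 0.11 to 0.19 FPKM in the 4 KO libraries of both routes. Txnip, an inhibitor of thioredoxin whose RNA follows glucose supply, was at 31.1 and 135 FPKM (log2 fold change 2.11 ± 0.24, adjusted p = 0.000183), with 83.2 in pluripotent WT cells, so that the LIF withdrawal library was the lowest of the WT libraries. Pttg1, securin, an inhibitor of the separation of sister chromatids, was likewise lower after LIF withdrawal (11.6 FPKM) than in pluripotent cells (32.2) and embryoid bodies (64.4). The other genes among the 12 largest rises were Magel2, Nccrp1, Gnmt, Slc15a2 and Dppa3, with log2 fold changes between 2.12 and 2.72.

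The 12 largest falls held 3 genes of the contractile cytoskeleton. Tagln, which encodes the actin-binding protein transgelin of smooth muscle, was at 47.9 FPKM after LIF withdrawal and 3.86 in embryoid bodies (log2 fold change -3.64 ± 0.22, adjusted p = 3.83e-06), and at 2.27 in pluripotent WT cells. Acta1, skeletal muscle actin, was at 8.24 and 0.42 FPKM (129 and 6 counts; log2 fold change -4.37 ± 0.59, adjusted p = 0.000495). Actc1, cardiac actin, was at 6.17 and 0.53 FPKM (log2 fold change -3.52 ± 0.53, adjusted p = 0.000863). Acta2, smooth muscle actin, was under the level for testing, with 64 counts against 13, a count ratio of 0.21 (95% exact binomial interval 0.11 to 0.38). In each of these the WT LIF withdrawal library was the highest of the 9, and in the KO libraries of both routes Tagln stayed at 1.05 to 1.61 FPKM. Tagln and Acta2 also belong to the list of fibroblast and feeder markers. Of that list, Postn, Dcn and Lum had 0 or 1 count in both libraries, and Col1a1 was called higher in embryoid bodies. Acta1 and Actc1 lost their calls in DESeq2. Myl7 and Myl4, which stand with Actc1 in the list of lateral plate and cardiac genes, were tested and had no call.

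Promoters of the sarcomeric actins are shown because serum response factor, whose site is the CArG box, is the textbook regulator of these genes. Of the 12 largest falls, 7 had a promoter in the RefSeq table (build GRCm38.p6) and 2 of them, Acta1 and Actc1, held a CArG box in the 250 bases before the start on either strand. None of the 7 matched promoters among the 12 largest rises did, and 1.47% of all 32851 promoters did. The sequences run 5′ to 3′ up to the base before the start, on the minus strand in both, with the CArG box in capitals. Acta1 is at chr8:123894776-123895025 and Actc1 at chr2:114052876-114053125.
Acta1: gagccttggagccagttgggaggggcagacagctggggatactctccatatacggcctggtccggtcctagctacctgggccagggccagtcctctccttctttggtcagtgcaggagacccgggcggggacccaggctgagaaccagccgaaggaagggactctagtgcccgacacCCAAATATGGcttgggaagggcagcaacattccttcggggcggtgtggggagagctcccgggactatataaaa
Actc1: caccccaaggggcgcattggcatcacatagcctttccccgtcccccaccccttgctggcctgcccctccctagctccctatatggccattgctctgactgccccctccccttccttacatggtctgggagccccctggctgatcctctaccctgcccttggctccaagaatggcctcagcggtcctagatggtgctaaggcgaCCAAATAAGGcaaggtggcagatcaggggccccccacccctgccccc
The box begins 73 bases before the start in Acta1 and 47 in Actc1. A match describes letters in this window and shows no binding, and Tagln had no entry.

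Neurofilament genes fell as well. Nefl, the light neurofilament chain, was at 44.8 FPKM after LIF withdrawal and 5.80 in embryoid bodies (log2 fold change -2.95 ± 0.27, adjusted p = 5.4e-05), and Nefh, the heavy chain, at 14.5 and 2.08 FPKM (log2 fold change -2.81 ± 0.20, adjusted p = 7.61e-06). Both also fell in KO cells, by less, with called differences between the genotypes. Gadd45g, a stress and differentiation gene, was at 8.06 and 1.0 FPKM (log2 fold change -3.00 ± 0.49, adjusted p = 0.00148), a call lost in DESeq2. Ahnak, a very large scaffold protein, was at 6.36 and 0.97 FPKM (log2 fold change -2.64 ± 0.20, adjusted p = 1.36e-05). The remaining large falls were Ccnd2, A2m, Stc2, Chac1 and Fbp2, with log2 fold changes from -2.88 to -2.46. The A2m call was lost in DESeq2 and in all 3 fits to FPKM.

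**Figure D2:**
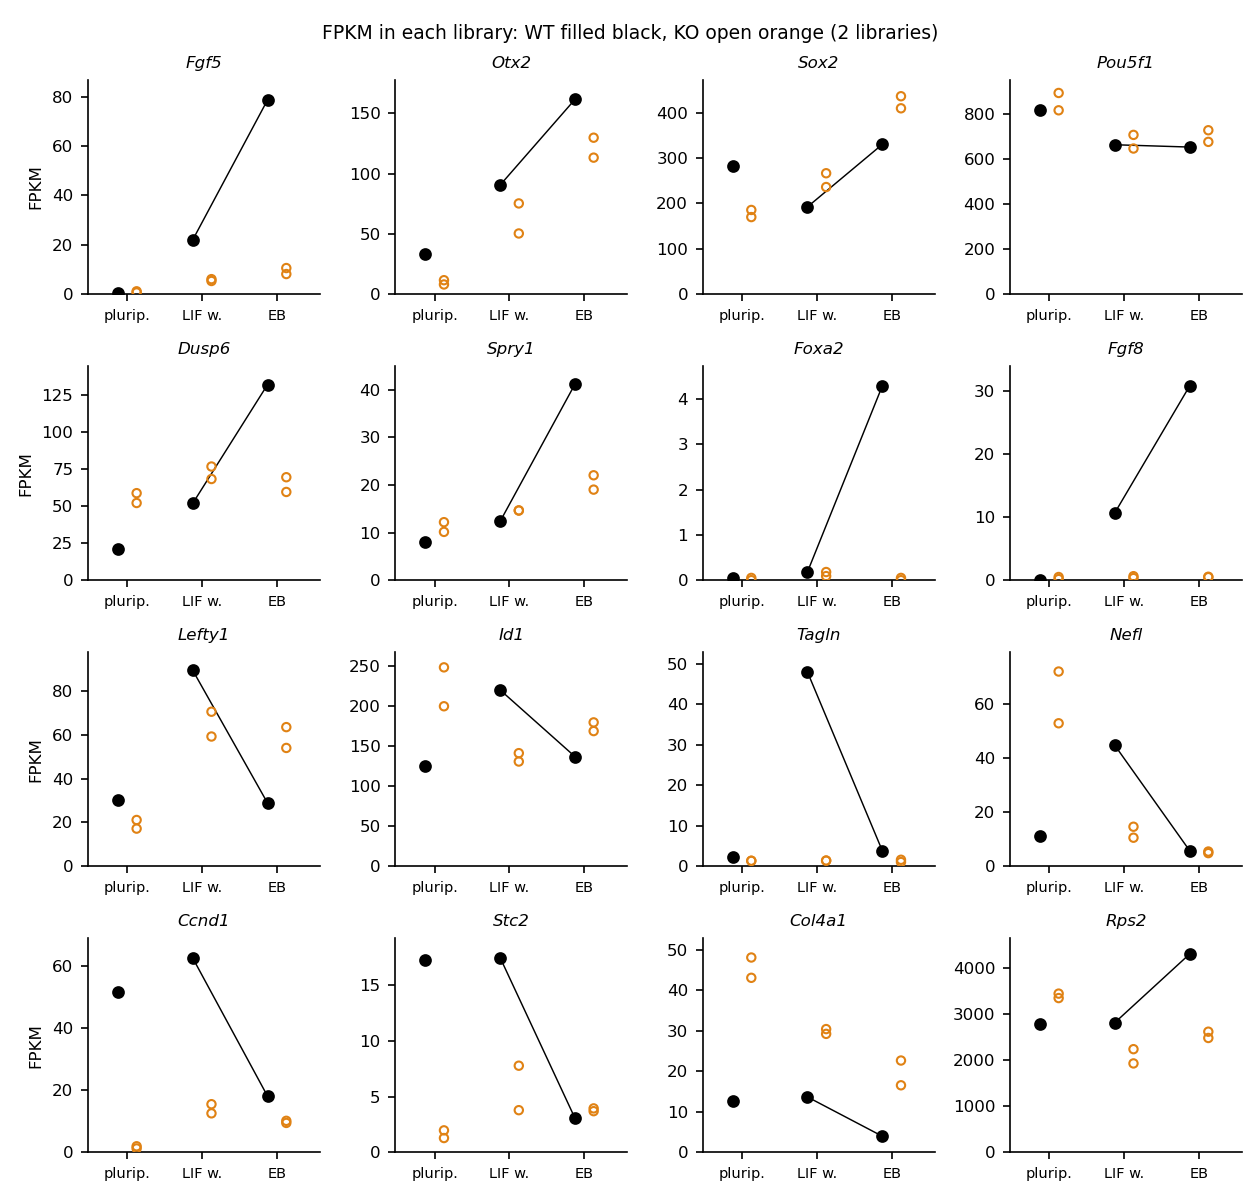
FPKM (y axis, from 0) of 16 genes in each of the 9 libraries, by condition (x axis: pluripotent, LIF withdrawal, embryoid bodies); filled black points are the single WT libraries, joined between the 2 routes, and open orange points the 2 KO libraries. Fgf5, Dusp6 and Spry1 are highest in WT embryoid bodies, Tagln, Nefl and Lefty1 fall to 3.86, 5.80 and 28.8 FPKM there, and Pou5f1 is level between the routes.

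Exit from pluripotency was similar by some markers and different by others. Counts of WT calls by list, here and below, stand beside 9.57% higher and 12% lower among all genes tested. Pou5f1, the core pluripotency factor OCT4, was at 665 FPKM after LIF withdrawal and 655 in embryoid bodies (log2 fold change -0.07 ± 0.11, adjusted p = 0.664). Of 20 naive genes, 2 were called higher and 7 lower in embryoid bodies, with a median log2 fold change of -0.08. Esrrb, a naive-state nuclear receptor, was at 69.5 and 64.5 FPKM against 186 in pluripotent WT cells (log2 fold change -0.12 ± 0.11, adjusted p = 0.483). Klf4, a LIF target, was at 21.1 and 17.3 FPKM against 155 (log2 fold change -0.30 ± 0.15, adjusted p = 0.176). The naive genes that fell included Prdm14, a repressor of epiblast genes (8.10 and 3.71 FPKM; log2 fold change -1.13 ± 0.21, adjusted p = 0.00302), Jam2, a junction protein (-1.19), Tdgf1, the NODAL co-receptor (-1.0), and Fgf4 (-0.85). The pair that rose was Dppa3 (2.13 and 9.35 FPKM), a maternal-effect and germline gene whose call was lost in DESeq2, and Tcl1 (0.57), a co-activator of AKT.

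Of 12 general pluripotency genes, 3 rose and 3 fell (median -0.07). Sox2, the partner of OCT4 and later a neural progenitor factor, was at 192 FPKM after LIF withdrawal and 330.4 in embryoid bodies (log2 fold change 0.77 ± 0.10, adjusted p = 0.00048), the latter above the pluripotent WT level of 282. Utf1, a chromatin-bound factor of ES cells, rose by 0.57. Gdf3, a TGF-beta family ligand, fell from 39.0 to 15.2 FPKM (log2 fold change -1.36 ± 0.19, adjusted p = 0.000495), and Trim71 and L1td1, both RNA-binding proteins, by 1.02 and 0.82 on the log2 scale.

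Formative epiblast genes split in the same manner, with 4 of 12 tested higher and 3 lower (median 0.14). Fgf5, the classic marker of this state, was at 0.42 FPKM in pluripotent WT cells, 22 after LIF withdrawal and 78.8 in embryoid bodies (log2 fold change 1.85 ± 0.17, adjusted p = 5.92e-05). Otx2, a driver of the formative state, was at 90.4 and 161 FPKM (log2 fold change 0.83 ± 0.21, adjusted p = 0.0155), and Pou3f1 at 22.2 and 43.3 FPKM (log2 fold change 0.96 ± 0.19, adjusted p = 0.00489). Dnmt3b, a de novo DNA methyltransferase, rose by 0.49. Its paralogue Dnmt3a fell from 48.4 to 22.3 FPKM (log2 fold change -1.13 ± 0.13, adjusted p = 0.000174), and Lef1, a transcription factor of WNT signalling, from 26.2 to 10.8 (log2 fold change -1.46 ± 0.25, adjusted p = 0.00183). The calls of Otx2 and Lef1 were lost in DESeq2.

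The called feedback genes of FGF and ERK signalling were higher in embryoid bodies. They belong to a list that also holds ligands and receptors, of whose 21 members tested 9 rose and 3 fell, with a median of 0.41. Dusp6, the phosphatase that switches off ERK, was at 51.8 FPKM after LIF withdrawal and 132 in embryoid bodies (log2 fold change 1.34 ± 0.14, adjusted p = 0.00013). Dusp4, a nuclear ERK phosphatase, was at 7.54 and 26.2 FPKM (log2 fold change 1.79 ± 0.23, adjusted p = 0.00035). The Sprouty genes, inhibitors of receptor tyrosine kinase signalling, rose together: Spry1 from 12.3 to 41.1 FPKM (log2 fold change 1.76 ± 0.16, adjusted p = 5e-05), Spry2 from 26.4 to 81.4 (log2 fold change 1.62 ± 0.11, adjusted p = 7.61e-06) and Spry4 from 18.1 to 33.2 (log2 fold change 0.87 ± 0.10, adjusted p = 0.000192). Il17rd, a further membrane inhibitor of FGF receptors, rose by 0.70. Etv1, Etv4, Etv5, Egr1 and Spred1, also of the list, had no call in WT.

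The ligands moved both ways. Fgf5 and Fgf8 rose, the latter, a streak ligand, from 10.7 to 30.8 FPKM (log2 fold change 1.49 ± 0.27, adjusted p = 0.00265), while Fgf4, the autocrine ligand of ES cells, fell from 88.1 to 49.2 (log2 fold change -0.85 ± 0.12, adjusted p = 0.000502). Fgf15 and Fgf17 fell by 0.94 and 1.08 on the log2 scale. Among receptors Fgfr2 rose by 1.12. The KO cells differed here: Dusp6 was at 68.2 and 76.7 FPKM after KO LIF withdrawal and 59.5 and 69.4 in KO embryoid bodies, and 9 of the 21 had a WT difference called above the KO one, against 186 genes (1.33%) among all tested. Those 9 were Dusp4, Dusp6, Spry1, Spry2, Spry4, Il17rd, Fgf5 and the ERK-responsive factors Etv1 and Etv4, which had no WT call of their own.

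Streak genes were more often higher than lower in the WT embryoid bodies among those called. Of 14 streak and mesendoderm genes tested, 5 rose and 2 fell, with a median of 0.48. T (brachyury), the defining streak factor, was at 17.5 FPKM after LIF withdrawal and 24.0 in embryoid bodies and did not pass the test (log2 fold change 0.45 ± 0.20, adjusted p = 0.132). Foxa2, which specifies the anterior streak and endoderm, was at 0.18 and 4.29 FPKM (4 and 92 counts; log2 fold change 4.51 ± 0.64, adjusted p = 0.000643). Gsc, of the organizer, was at 0.73 and 3.81 FPKM (log2 fold change 2.37 ± 0.66, adjusted p = 0.0298). Mixl1, a mesendoderm homeobox factor, was at 2.50 and 5.67 FPKM (log2 fold change 1.17 ± 0.36, adjusted p = 0.0388) and Eomes, its T-box partner, at 21.6 and 35.0 (log2 fold change 0.69 ± 0.15, adjusted p = 0.00693).

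Cer1 and Lhx1, anterior endoderm and organizer genes, were too low to test. Cer1 had 1 count after LIF withdrawal and 32 in embryoid bodies, a ratio of 32.9 (95% exact binomial interval 5.49 to 1339). Lhx1 had 1 and 36, a ratio of 37.0 (95% exact binomial interval 6.23 to 1501). Those intervals cover counting error only. The streak genes that fell were Wnt3, the ligand that starts the streak (5.41 and 2.46 FPKM; log2 fold change -1.14 ± 0.36, adjusted p = 0.0412), and Cdx2, a posterior homeobox factor (3.82 and 1.12 FPKM; log2 fold change -1.76 ± 0.50, adjusted p = 0.0293). Of these 7 calls, all but Eomes were lost in DESeq2. T, Foxa2, Fgf8, Gsc, Wnt3 and Cdx2 were at or below 0.63 FPKM in all 4 KO libraries of both routes.

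Definitive endoderm genes gave 4 rises and 2 falls among 11 tested (median 0.14). Gata6, a factor of primitive and definitive endoderm, was at 0.26 FPKM after LIF withdrawal and 1.5 in embryoid bodies (9 and 50 counts; log2 fold change 2.49 ± 0.55, adjusted p = 0.0079), a call lost in DESeq2. Trh, the thyrotropin-releasing hormone precursor, was at 492 and 1206 FPKM (log2 fold change 1.29 ± 0.17, adjusted p = 0.000392), and at 452 in pluripotent WT cells. Of 18 extraembryonic endoderm genes tested, 3 rose and 5 fell (median -0.37), and DESeq2 called 1 higher and 5 lower. Gata6 belongs to this list as well and was among the rises. So was Apoe, apolipoprotein E, at 146 and 298 FPKM (log2 fold change 1.02 ± 0.14, adjusted p = 0.000617). The 5 falls included Col4a1, Col4a2 and Lamb1, whose values are given with the matrix genes. Gata4 and Sox7, which with Gata6 define that layer, did not pass the test (0.93 and 1.10, 0.72 and 0.70 FPKM). Afp, Ttr and Apoa1, products of its mature form, had 0 to 5 counts in both libraries.

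Genes of mesoderm, neuroectoderm and axial patterning followed. Of 11 lateral plate and cardiac genes tested, 2 fell, Actc1 and Msx2, and none rose, near the 12% lower among all genes tested. DESeq2 called none of these 11. Of 11 paraxial mesoderm genes, 3 rose and none fell, among them Rspo3, a WNT co-ligand (0.58 and 2.32 FPKM; log2 fold change 1.97 ± 0.49, adjusted p = 0.0148), whose call was lost in DESeq2. Of 12 neuroectoderm genes tested, 1 rose and 4 fell. Nes, the progenitor filament nestin, fell from 12.8 to 4.15 FPKM (log2 fold change -1.63 ± 0.17, adjusted p = 0.000106), Tubb3, neuronal tubulin, from 43.6 to 20.3 (log2 fold change -1.11 ± 0.15, adjusted p = 0.000553), and Sox11, a neural progenitor factor, rose from 7.49 to 15.2 (log2 fold change 1.02 ± 0.18, adjusted p = 0.0026). Sox1 and Pax6, which define neuroectoderm, were at 0.37 and 0.19, and 1.59 and 1.15 FPKM, with no call. Of 28 Hox and Cdx genes 8 were high enough to test and 3 fell, Hoxb2 (2.90 and 0.48 FPKM) and Cdx2 among them, and DESeq2 called none of the list.

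**Figure D3:**
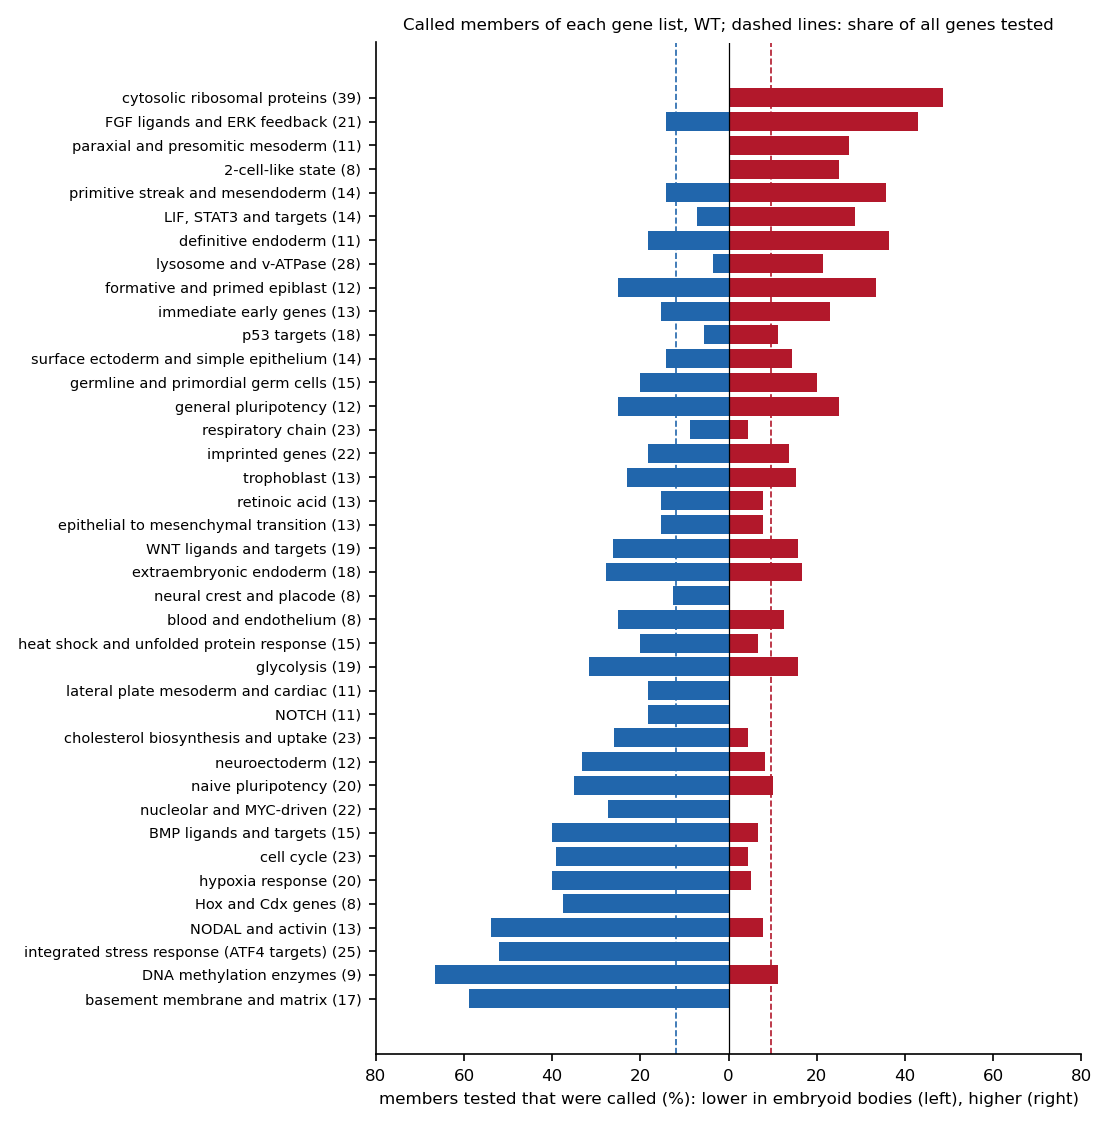
Share of the tested members of each gene list (number tested in brackets) that were called higher (right, red) or lower (left, blue) in WT embryoid bodies at an adjusted p below 0.05, for lists with 8 or more members tested. Dashed lines give the shares over all 13990 genes, 9.57% higher and 12% lower. Ribosomal proteins and the list of FGF ligands and ERK feedback stand at the top, and matrix, DNA methylation enzymes and ATF4 targets at the bottom.

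Most called members of the NODAL and activin list were lower in embryoid bodies, although the ligand Nodal was not called. Of 13 genes tested, 1 rose and 7 fell, with a median of -0.39. Cer1, of the same list and too low to test, was higher by count in embryoid bodies, as given above. In KO cells 1 rose and 8 fell (median -0.43), beside 16.7% higher and 17.6% lower among all genes tested. Nodal itself was at 66.2 FPKM after LIF withdrawal and 59.0 in embryoid bodies (log2 fold change -0.17 ± 0.13, adjusted p = 0.391). Lefty1, a feedback inhibitor and direct NODAL target, was at 89.4 and 28.8 FPKM (log2 fold change -1.64 ± 0.15, adjusted p = 5.92e-05). Pcsk6, the convertase that cleaves the NODAL precursor, was at 15 and 3.17 FPKM (log2 fold change -2.26 ± 0.13, adjusted p = 3.83e-06). Inhbb, the activin beta B subunit, had 77 counts against 2 in embryoid bodies, a count ratio of 0.0267 (95% exact binomial interval 0.00318 to 0.0997).

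Gdf3, Tdgf1 and Foxh1 also fell. Fst, follistatin, which binds and blocks activin, rose from 7.49 to 29.8 FPKM (log2 fold change 1.92 ± 0.22, adjusted p = 0.000192), with 0.58 FPKM in pluripotent WT cells and 0 to 0.21 in the 4 KO libraries of both routes.

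BMP targets were lower too: 6 of 15 members tested fell and 1 rose (median -0.48). Id1, an inhibitor of bHLH factors and direct BMP target, fell from 220.2 to 137 FPKM (log2 fold change -0.69 ± 0.13, adjusted p = 0.00345), and Id3 from 91.6 to 56.5 (log2 fold change -0.70 ± 0.13, adjusted p = 0.00249). Id2 fell by 0.48 on the log2 scale, a call lost in DESeq2. Smad6, the inhibitory SMAD, fell from 3.81 to 1.42 FPKM (log2 fold change -1.43 ± 0.27, adjusted p = 0.00358). Bmp4, the main ligand, was at 7.78 and 11.2 FPKM (log2 fold change 0.54 ± 0.24, adjusted p = 0.134), and Chrd, the antagonist chordin, rose by 1.18. In KO cells Id1 and Id2 were called higher in embryoid bodies (0.28 and 0.76), and the difference between the genotypes was called for Id1, Id2 and Id3.

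WNT ligands and targets gave 3 rises and 5 falls among 19 tested (median -0.24). Wnt6 fell from 3.32 to 0.42 FPKM (73 and 9 counts; log2 fold change -2.97 ± 0.42, adjusted p = 0.000609). Notum, a secreted WNT inhibitor, fell from 8.48 to 3.97 FPKM (log2 fold change -1.10 ± 0.24, adjusted p = 0.00679). Tcf7 and Sfrp1 rose by 0.50 and 0.67.

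Of the cell cycle list 9 of 23 fell, the D-type cyclins Ccnd1 and Ccnd2 among them, and 1 rose (median -0.25). Ccnd1, the cyclin that pairs with CDK4 and CDK6 in G1, was at 51.7 FPKM in pluripotent WT cells, 62.7 after LIF withdrawal and 18.1 in embryoid bodies (log2 fold change -1.80 ± 0.15, adjusted p = 2.75e-05). Ccnd2 was at 4.59, 6.42 and 0.88 FPKM (log2 fold change -2.88 ± 0.28, adjusted p = 6.73e-05), and Cdk6 fell by 1.0 on the log2 scale. Ccnd3, the third D-type cyclin and the most abundant of them by FPKM, had no call (93.2 and 98.0 FPKM; log2 fold change 0.07 ± 0.12, adjusted p = 0.731). The mitotic cyclins Ccna2, Ccnb1 and Ccnb2 had no call (-0.07, 0.06 and -0.25). Among replication genes Mcm5, a subunit of the helicase, fell from 194 to 116 FPKM (log2 fold change -0.74 ± 0.10, adjusted p = 0.000396).

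Targets of ATF4, the transcription factor of the integrated stress response, leaned lower. Of 25 tested, 13 fell and none rose, with a median of -0.50. Stc2, the secreted protein stanniocalcin 2, was at 17.5 FPKM after LIF withdrawal and 3.08 in embryoid bodies (log2 fold change -2.51 ± 0.36, adjusted p = 0.000675). Chac1, which degrades glutathione, was at 8.49 and 1.53 FPKM (log2 fold change -2.47 ± 0.30, adjusted p = 0.000268). Psat1, an enzyme of serine synthesis, was at 128 and 63.0 FPKM (log2 fold change -1.03 ± 0.10, adjusted p = 7e-05). Atf3, a factor of the same family, was at 5.23 and 1.17 FPKM (log2 fold change -2.16 ± 0.41, adjusted p = 0.00333). Atf4 itself was level, at 79.1 and 81.5 FPKM (log2 fold change 0.02 ± 0.13, adjusted p = 0.921).

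For all 4 of Stc2, Chac1, Psat1 and Atf3 the pluripotent WT library was nearer the LIF withdrawal level, at 17.2, 15.6, 166 and 4.33 FPKM. DESeq2 called 6 of the list lower.

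The ATF4 promoters are shown because its composite site, read here as TGATGNAA on either strand, is known from several of these targets. Of 12 members called lower that had a promoter in the RefSeq table, 5 held it in the 250 bases before the start (Atf3, Chac1, Nupr1, Slc7a11 and Vldlr), as did 2 of 10 members without a call and 3.45% of all promoters. Chac1 is at chr2:119350992-119351241 on the plus strand and Atf3 at chr1:191183334-191183583 on the minus strand (GRCm38.p6), each printed 5′ to 3′ up to the start with the match, which lies on the opposite strand, in capitals.
Chac1: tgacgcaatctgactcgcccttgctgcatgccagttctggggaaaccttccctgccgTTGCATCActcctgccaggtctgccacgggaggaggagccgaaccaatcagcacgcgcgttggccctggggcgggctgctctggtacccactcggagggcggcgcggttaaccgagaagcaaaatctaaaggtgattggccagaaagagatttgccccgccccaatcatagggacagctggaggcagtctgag
Atf3: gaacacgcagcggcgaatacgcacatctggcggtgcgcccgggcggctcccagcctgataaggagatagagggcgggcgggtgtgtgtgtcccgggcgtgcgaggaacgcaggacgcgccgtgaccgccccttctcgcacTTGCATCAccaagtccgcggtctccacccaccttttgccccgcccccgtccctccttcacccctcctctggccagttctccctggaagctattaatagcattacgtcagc
The match begins 193 bases before the start in Chac1 and 110 in Atf3, and Chac1 and Atf3 fell as given above.

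Hypoxia and glycolysis genes leaned lower. Of 20 hypoxia genes 8 fell and 1 rose (median -0.74). Pfkfb3, which drives glycolysis through fructose 2,6-bisphosphate, was at 12.3 FPKM after LIF withdrawal and 3.17 in embryoid bodies (log2 fold change -2.06 ± 0.33, adjusted p = 0.00145). Ndrg1, a hypoxia-induced gene of differentiation, was at 16 and 4.89 FPKM (log2 fold change -1.72 ± 0.29, adjusted p = 0.002), and Kdm3a, a histone demethylase, at 53.8 and 28.4 (log2 fold change -0.93 ± 0.10, adjusted p = 0.000143). The KO LIF withdrawal pair itself differed in this list: Ddit4, an inhibitor of mTORC1, was at 13.0 and 28.2 FPKM in its 2 libraries, and it had no call in WT (129 and 93.2 FPKM). Of 19 glycolysis genes 6 fell and 3 rose (median -0.37), with Pkm, pyruvate kinase, falling from 2192 to 1487 FPKM (log2 fold change -0.57 ± 0.11, adjusted p = 0.00377) and Eno2, the neuronal enolase, rising by 1.08.

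Basement membrane and matrix genes fell without exception among those called, 10 of 17 (median -0.52). Col4a1 and Col4a2, the collagen IV chains that form the sheet, were at 13.7 and 5.67 FPKM after LIF withdrawal and 4.0 and 1.77 in embryoid bodies. Their log2 fold changes were -1.78 ± 0.20 and -1.69 ± 0.18 (SE), with adjusted p of 0.000172 and 0.000143. Lamb1, Nid1, Hspg2 and Col18a1, a laminin chain, nidogen, perlecan and collagen XVIII, fell by 0.62, 0.61, 0.83 and 0.52 on the log2 scale. Lama1, the laminin chain of the early embryo, had no call (1.90 and 1.67 FPKM).

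Of 39 ribosomal protein genes 19 were higher and none lower, none by 2-fold (median 0.33). Rps2 was at 2818 FPKM after LIF withdrawal and 4309 in embryoid bodies (log2 fold change 0.60 ± 0.12, adjusted p = 0.00424). These genes have many near-identical pseudogene copies, so the counts of single members are uncertain. In KO cells 33 of the 39 rose, beside 16.7% of all genes tested (median 0.28).

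Both of these lists touch a trend over the whole transcriptome. With the genes in 5 groups of equal size by length, from the shortest transcripts (median 998 bases) to the longest (5811 bases), the median log2 fold change fell from 0.15 to -0.17, and in KO cells from 0.10 to -0.12. Against pluripotent WT cells the trend lay in the LIF withdrawal library (-0.10 to 0.14) more than in the embryoid body library (0.03 to -0.01). With each library's length trend removed, a setting added after seeing the data, 7 ribosomal protein genes were higher (median 0.15) and 6 matrix genes lower (median -0.37), Lama5 and Hspg2 losing their calls and Col4a1 and Col4a2 keeping theirs. The FGF and ERK list again had 9 higher and 3 lower. In the same setting 5 hypoxia genes and 4 DNA methylation enzymes were lower. What underlies the trend was not tested.

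**Figure D4:**
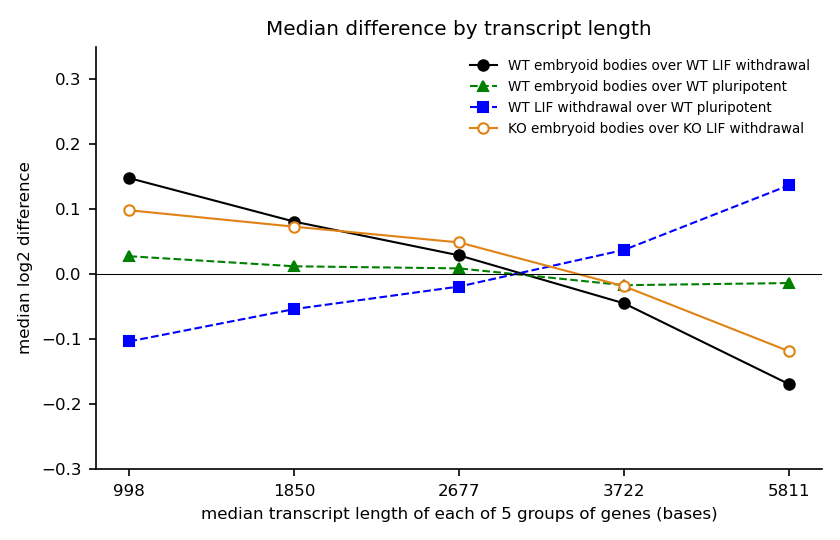
Median log2 difference (y axis) of the 13990 genes tested in 5 groups of equal size by transcript length (x axis, median length of each group in bases) for embryoid bodies over LIF withdrawal in WT (black) and KO (orange) cells and for each WT route over the pluripotent WT library (dashed). The black line falls from 0.15 to -0.17, and the blue line of LIF withdrawal over pluripotent cells rises from -0.10 to 0.14.

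In both directions the level in the pluripotent WT library was more often nearer that after LIF withdrawal than that in embryoid bodies. Of the 320 genes at least 2-fold higher in embryoid bodies, the pluripotent level was nearer the LIF withdrawal level for 263 (82.2%), below both for 165 and above both for 12. Of the 387 at least 2-fold lower in embryoid bodies, it was nearer the embryoid body level for 94 (24.3%), below both for 40 and above both for 171. Sema6a (0.15 FPKM in pluripotent cells) and Fgf5 (0.42) belong to the first kind, and Ccnd1 and Stc2, near their pluripotent level after LIF withdrawal and lower in embryoid bodies, to the second. Tagln and Actc1 (0 FPKM in pluripotent cells) were high after LIF withdrawal alone among the WT libraries. This is a description with no test.

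In KO cells the route differences were shared in part. Of the 320 WT genes, 123 were called at least 2-fold higher in KO embryoid bodies as well (38.4% of the WT and 21.6% of the KO list). Of the 387, 85 were lower (22% and 38.3%). Among all genes tested the KO shares were 4.07% and 1.59%. By sign alone, 290 of the 320 were higher and 326 of the 387 lower in KO cells, and 4 and 11 were called in the opposite direction. A difference between the contrasts was called for 54 (16.9%) and 84 (21.7%). The WT and KO contrasts share no library, and the median log2 fold change in KO was 0.82 for the first set and -0.63 for the second, against 1.35 and -1.40 in WT. The sets were chosen on the WT values, which by itself makes them larger in WT. The test of the difference between the contrasts called 186 genes higher in WT (1.33%) and 295 lower (2.11%), or 152 and 389 with no TMM factors. DESeq2 called 236 in all, and without either KO embryoid body library 166 or 203 were called.

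Car2, carbonic anhydrase 2, had one of the firmest such differences. It was at 130.4 FPKM after WT LIF withdrawal and 405 in WT embryoid bodies (log2 fold change 1.63 ± 0.12, adjusted p = 1.3e-05), against 85.4 and 95.2 FPKM after LIF withdrawal and 60.3 and 60.8 in embryoid bodies of KO cells, a difference of contrasts of 2.28 ± 0.15 (SE; adjusted p = 4.57e-05). Car3, its muscle-type relative, showed the same order, at 6.16 and 11.8 FPKM in WT, and in KO cells at 3.86 and 4.99 after LIF withdrawal and 2.36 and 2.47 in embryoid bodies. Nrp2, a co-receptor of semaphorins and VEGF, went the other way in each genotype, from 5.39 to 2.33 FPKM in WT (log2 fold change -1.12 ± 0.19, adjusted p = 0.00178) and from 0.53 and 0.75 to 1.58 and 1.66 in KO cells. Vgf, a secreted neuropeptide precursor, and Rem2, a small GTPase, were called higher in KO embryoid bodies, with WT log2 fold changes of -0.53 and 0.55 (adjusted p = 0.144 and 0.317). Both were at or below 0.58 FPKM after KO LIF withdrawal.

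**Figure D5:**
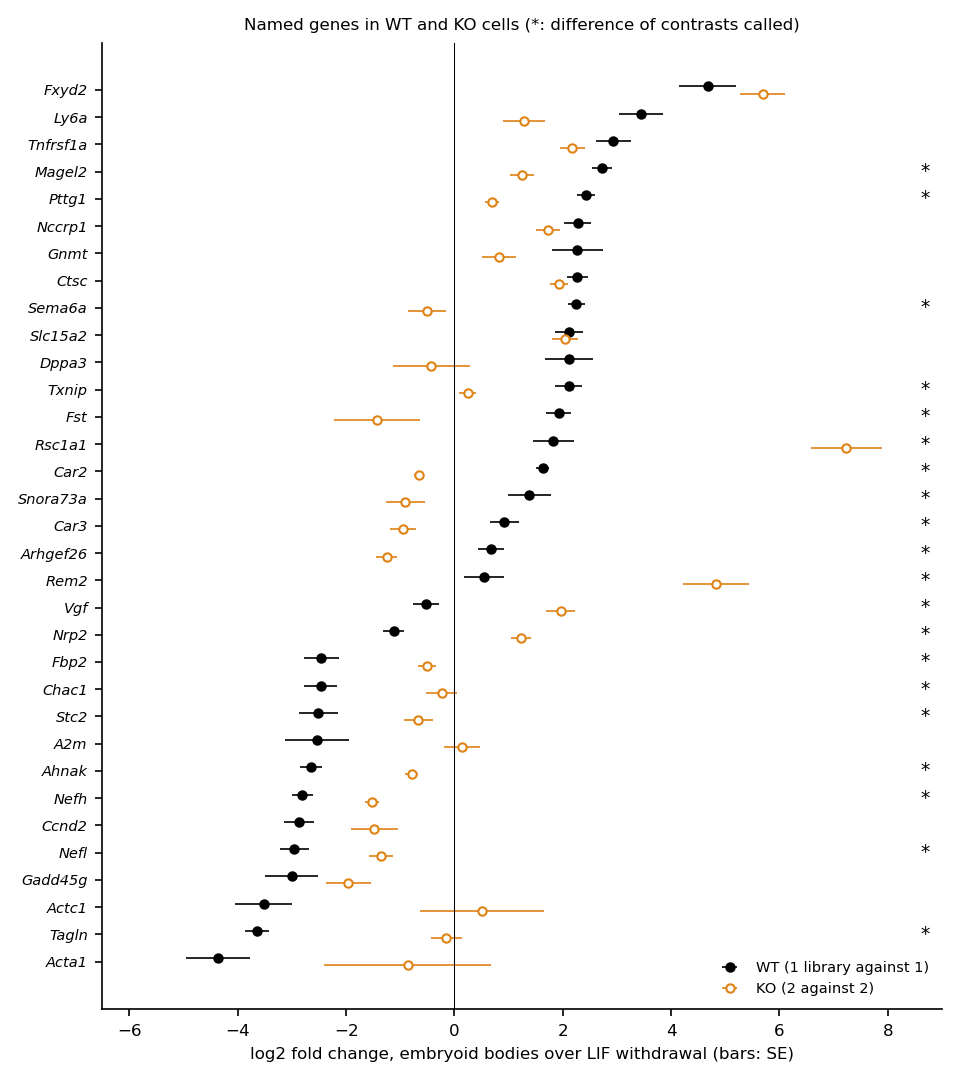
Log2 fold change of embryoid bodies over LIF withdrawal (x axis; bars are SE) for the genes named by size in WT (filled) and KO (open) cells, ordered by the WT value; a star marks a called difference of the contrasts. Slc15a2 and Ctsc lie close together in both genotypes, while Car2, Sema6a, Tagln and Nrp2 do not.

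Imprinted genes, which are expressed from one parental allele, gave 3 rises and 4 falls among 22 tested (median 0.19). That is near the 9.57% higher and 12% lower among all genes tested, and DESeq2 called 2 higher and 2 lower. Snrpn, a spliceosome protein of the Prader-Willi region that shares its transcript with another reading frame, was at 239 FPKM after LIF withdrawal and 547 in embryoid bodies (log2 fold change 1.19 ± 0.12, adjusted p = 8.77e-05). Ndn, of the same region, was at 12.3 and 18.3 FPKM (log2 fold change 0.57 ± 0.17, adjusted p = 0.0368), a call lost in DESeq2. Its neighbour Magel2 was not in the list and not counted in it, and was at 6.22 and 41.2 FPKM (log2 fold change 2.72 ± 0.19, adjusted p = 7.61e-06). Peg10 rose from 122 to 254 FPKM (log2 fold change 1.04 ± 0.13, adjusted p = 0.000258). Grb10, a growth-restricting adaptor, fell from 2.54 to 0.21 FPKM (138 and 11 counts; log2 fold change -3.60 ± 0.42, adjusted p = 0.000188). Of 9 DNA methylation enzymes 6 fell and 1, Dnmt3b, rose, with Tet2, which oxidises methylcytosine, falling from 12.8 to 6.53 FPKM (log2 fold change -0.97 ± 0.15, adjusted p = 0.000971).

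The counts by list moved with the test. DESeq2 called 1 streak gene and 1 definitive endoderm gene higher and none of either list lower. It called 3 BMP, 3 WNT, 4 hypoxia and 2 glycolysis genes lower. It called 7 FGF and ERK genes higher and 2 lower, 6 NODAL genes lower, 9 matrix genes lower and 20 ribosomal protein genes higher. With upper quartile factors 29 ribosomal protein genes were higher.

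The named calls were not equally firm. Beside the losses given above, DESeq2 did not call Car3, Chrd, Eno2, Fgf17, Fgfr2, Foxh1, Msx2, Nupr1, Tcf7 and Vldlr. All 3 fits of limma to FPKM lost Dnmt3b, Otx2, Pou3f1, Tcf7, Lamb1, Vldlr and Id2. Without either KO embryoid body library the calls of Car3, Foxh1, Id2, Ndn, Nupr1 and Vldlr were lost. At an assumed coefficient of variation of 0.4, Fxyd2, Acta1, Foxa2 and Inhbb were the genes named above that kept a call.

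Markers of other cells were checked in both libraries. Of 14 fibroblast and feeder genes 5 were tested, and 2 were called higher and 3 lower, beside 9.57% and 12% of all genes tested. Postn, Dcn and Lum, picked from the list after their values were seen, had 0 or 1 count in each WT library. Col3a1 had 9 counts after LIF withdrawal and 3 in embryoid bodies. The summed FPKM of the 13 listed genes was 216 after LIF withdrawal and 138 in embryoid bodies, most of it Vim and Fn1. Vim, vimentin, fell from 63.8 to 32.1 FPKM (log2 fold change -1.0 ± 0.14, adjusted p = 0.000594), and Col1a1 rose from 2.05 to 5.81 (log2 fold change 1.49 ± 0.25, adjusted p = 0.0018).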

How the data were processed

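RNA was sequenced from 9 libraries of E14 mouse ES cells in 6 groups. Each file held, per gene, an estimated count and an FPKM value deposited by the authors. Bowtie2 and the genome build mm8 come from the submitters' processing notes. The quantifier, its annotation and the strandedness are not given in the sources used here. Of 20287 gene IDs in the files, 20234 matched a RefSeq gene by ID, 9 by accession and 44 did not.

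Expected counts were rounded, scaled with TMM factors and fitted with edgeR 4.0.16 (quasi-likelihood test, Benjamini-Hochberg adjustment over all 13990 genes with a mean of at least 0.5 FPKM) in R 4.3.3, as 1 mean per group. The 3 residual degrees of freedom came from the KO pairs. Each SE was derived as the absolute log2 fold change divided by the square root of the F statistic of its test. It is approximate, above all at low counts. Unless another test is named, a call is an adjusted p below 0.05. Library totals of 10147277 to 10863845 limit precision at low counts, and count intervals cover counting error only. The fit was tested on simulated data. Alternatives were DESeq2 1.42.0, limma 3.58.1 on log2(FPKM + 1), log2(FPKM + 0.1) or quantile-normalized values, other scaling and filters, assumed variation of 0.2 or 0.4, the differentiated groups alone, a replicate block and leaving out libraries. Removal of a trend on transcript length was chosen after seeing the data.

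Genes were named by rule: the 12 largest rises and falls called at 2-fold with at least 5 FPKM, up to 6 called members and the first 3 members of each list, and the 6 largest differences of contrasts in each direction. The members and lists were chosen with earlier results of these data known. Acta2, Afp, Apoa1, Ccnd3, Cer1, Col18a1, Dcn, Egr1, Etv1, Etv4, Etv5, Fgf17, Fgfr2, Foxh1, Id2, Il17rd, Lhx1, Lum, Ndn, Pkm, Postn, Sfrp1, Slc7a11, Spred1, Spry4, Tcf7, Ttr and Lamtor5 lie outside that rule and were named after their values were seen. Some list members are not reported here. Promoters came from the RefSeq table of GRCm38.p6, matched by symbol.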

Additional observations from a re-analysis of the deposited data

Results flagged for a closer look

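Of the genes named, 49 had a difference between the WT and the KO contrast of embryoid bodies over LIF withdrawal that passed the quasi-likelihood test of edgeR after adjustment over all genes. Among all 13990 genes tested, 186 (1.33%) were called higher in WT and 295 (2.11%) lower. The 6 largest called differences in each direction were named by this same test, so the number 49 was in part fixed in advance. The values below are the WT minus KO difference in log2 for these 49 genes. In 20 genes the WT contrast was the higher. Among FGF and ERK genes these were Dusp4 (1.72), Dusp6 (1.58), Spry1 (1.35), Fgf5 (1.21), Etv4 (1.08), Spry4 (1.05), Etv1 (1.02), Spry2 (1.0) and Il17rd (0.66). The others were Foxa2 (6.85), Gata6 (3.86), Fst (3.35), Sema6a (2.75), Car2 (2.28), Car3 (1.87), Txnip (1.86), Pttg1 (1.74), Magel2 (1.48), Peg10 (1.10) and Snrpn (0.88). Foxa2, Gata6, Fst and Sema6a were near 0 FPKM in some libraries of the contrast, so the size of their fitted values depends on the prior count.

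In 29 genes the WT contrast was the lower. Signalling and naive-state genes among them were Wnt6 (-3.55), Prdm14 (-1.58), Lefty1 (-1.43), Pcsk6 (-1.26), Id2 (-1.24), Notum (-1.20), Fgf15 (-1.17), Fgf4 (-1.06), Id1 (-0.98), Id3 (-0.84) and Jam2 (-0.80). The others were Rem2 (-4.29), Tagln (-3.49), Grb10 (-2.82), Vgf (-2.50), Nrp2 (-2.36), Chac1 (-2.23), Fbp2 (-1.95), Ahnak (-1.86), Stc2 (-1.84), Nefl (-1.59), Nefh (-1.29), Ccnd1 (-1.21), Col4a2 (-1.14), Col4a1 (-1.10), Psat1 (-0.72), Lama5 (-0.57), Kdm3a (-0.57) and Fn1 (-0.51). Each value rests on 1 WT library per route.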

How the results depend on the processing

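No named WT call changed sign under any setting run, and all 707 genes called with at least a 2-fold change kept their sign wherever they were tested. Every setting compared the same 2 WT libraries, so a kept sign is largely built in and shows nothing about repeat cultures. Of the 707, 348 kept a call in DESeq2, 203 at an assumed variation of 0.2 and 9 at 0.4. The 3013 WT calls became 1270 in DESeq2, 1933 in limma on log2(FPKM + 0.1), 216 at an assumed variation of 0.2 and 14 at 0.4, and 2453 to 3264 with a KO library or the pluripotent WT library left out. The 320 higher at 2-fold became 136 in DESeq2, 194 in limma on log2(FPKM + 1), 201 in limma on quantile-normalized values, 92 and 7 at the assumed variations, and 287 to 350 with a library left out. The 387 lower became 215, 186, 224, 124 and 7 in the same order, and 351 to 406. The 481 differences between WT and KO contrasts became 236 in DESeq2, 116, 71 and 141 in limma on log2(FPKM + 1), log2(FPKM + 0.1) and quantile-normalized values, and 166 to 565 with a library left out. The share of genes with the pluripotent level nearer the lower route, 82.2% of those higher in embryoid bodies, became 75.8% in limma on log2(FPKM + 0.1) and 57.1% at an assumed variation of 0.4, and was 82.2% to 82.6% with a library left out. The share for genes higher after LIF withdrawal, 24.3%, became 17.7% in DESeq2, 17.5% in limma on log2(FPKM + 0.1) and 17.5% at a mean of at least 2 FPKM, and was 24.0% to 24.9% with a library left out. The cause of these shifts was not tested, other than the assumed variation and the smaller number of samples, which are built into their settings.

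With the replicate number as a block, 1172 differences between contrasts and 4009 WT calls passed. The numbers are not known to pair the KO libraries: the correlations of same-numbered deviations were 0.183, 0.022 and 0.071. Leaving out either WT library of the comparison gives no value. The tests measure the spread between KO libraries, which may be technical, and depth limits genes near 3 counts.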

Other observations

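The counts below stand beside 9.57% of all genes tested called higher and 12% lower in WT cells, and 16.7% and 17.6% in KO cells. Lysosomal genes gave 6 rises and 1 fall among 28 tested in WT cells, with a median log2 fold change of 0.07. In KO cells they gave 18 rises and 1 fall, with a median of 0.31. Nucleolar and MYC-driven genes gave no rise and 6 falls among 22 in WT cells, with a median of -0.27. Genes of the LIF and STAT3 pathway gave 4 rises and 1 fall among 14 tested, with a median of 0.13. Of 15 germline genes 3 rose and 3 fell, with a median of -0.38. Targets of p53 gave 2 rises and 1 fall among 18 in WT cells and 8 rises and no fall in KO cells. Respiratory chain genes gave 1 rise and 2 falls among 23, and 8 falls with the trend on transcript length removed.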
